A study of Mus musculus with 72 samples.

Results

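The UDP-glucuronosyltransferases (UGT), the glutathione transferases (GST) and the cytosolic sulfotransferases (SULT) are the enzyme families that carry out most phase II conjugation in the liver. They were followed here as 48 genes of the 22180 that had a probe set with a single gene symbol. A gene was taken where its symbol began with Ugt, with Gst and a class letter (a, k, m, o, p, t or z) or with Sult, each followed by a digit, except for Gstp3 and Sult2a7. The 48 members were 11 UGT, 17 GST and 20 SULT genes, each with 1 probe set. Genes in the lowest 40% by their mean level were not tested, which left 13308 genes and 32 members (10 UGT, 15 GST and 7 SULT).

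Livers were collected every 4 h under 12 h light and 12 h dark, at 6 zeitgeber times (ZT, counted in hours from lights on) between ZT0 and ZT20, and each RNA was put on 1 single-colour Affymetrix array. The first cohort carries the strain label 129 mixed and holds 18 arrays from livers labelled SIRT6 KO and 18 from their own wild type (WT). The second carries the strain label C57BL/6 and holds 18 arrays labelled SIRT1 KO and 18 from their own WT. SIRT6 and SIRT1 are NAD-dependent deacylases that act on histones and other proteins, and both knockouts are labelled liver-specific. The sources used here do not give the Cre driver, the deleted exons, or the age and sex of the mice. Each of the 24 groups of genotype and time held 3 arrays, and nothing in the labels says that replicates came from separate mice. The p-values therefore cover the variation among these samples alone, which may be technical.

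Conjugation attaches a bulky or charged group to a drug, steroid, bile acid, bilirubin or reactive electrophile, so that transporters can move the product into bile or blood. UGT enzymes of the endoplasmic reticulum use UDP-glucuronic acid as donor, GST enzymes use glutathione, and cytosolic SULT enzymes use 3′-phosphoadenosine-5′-phosphosulfate (PAPS). Many of these genes are targets of the xenobiotic receptors CAR and PXR and of the oxidative stress factor NRF2. The circadian clock is known to reach detoxification genes through the PAR bZIP factors DBP, TEF and HLF, and several members differ between male and female mouse liver.

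Values are given as log2(intensity + 16), called the log2 level, from the deposited linear intensities, and a difference in log2 level is KO minus WT. The targeted genes were read first. Sirt6 averaged 7.89 ± 0.10 in livers labelled SIRT6 KO and 7.32 ± 0.18 in their WT (SD, n = 18 each), a difference of 0.57 (limma adjusted p = 8.9e-09), so it was higher under the KO label. Sirt1 averaged 8.74 ± 0.11 in livers labelled SIRT1 KO and 8.74 ± 0.18 in their WT (SD, n = 18 each; limma adjusted p = 0.961). The positions of these probes relative to the deleted parts are not known here, so neither value checks the labels, and SIRT6 KO and SIRT1 KO below mean the libraries labelled so. Median intensity per array lay between 43.9 and 53.8, and no pair of arrays held identical values. Replicate arrays correlated at 0.903 or more (SIRT6 cohort) and at 0.974 or more (SIRT1 cohort), and 5 SIRT6 arrays fell under a mean of 0.95 with their replicates. Levels of the cohorts stand side by side without a test, since the 99th percentiles of intensity did not overlap (3217 to 3430 for SIRT6 arrays, 3440 to 3641 for SIRT1 arrays).

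Promoter windows are shown for 3 mu-class GST genes of chromosome 3, each called rhythmic in 1 or more sets and 1 of them (Gstm7) also called in KO minus WT, and for Sult1c2, which had the largest amplitude among the members called rhythmic. RefSeq held windows of 300 bases (250 before to 50 after the annotated start) for 42 of the 48 members. The windows are from GRCm38.p6, each at the outermost annotated start, on the minus strand and written 5′ to 3′, with matches to the nuclear receptor motif GGGTCA on either strand in capitals. Their positions are chr3:108044810-108045109 for Gstm4, chr3:107953417-107953716 for Gstm6, chr3:107931768-107932067 for Gstm7 and chr17:53845909-53846208 for Sult1c2.
Gstm4: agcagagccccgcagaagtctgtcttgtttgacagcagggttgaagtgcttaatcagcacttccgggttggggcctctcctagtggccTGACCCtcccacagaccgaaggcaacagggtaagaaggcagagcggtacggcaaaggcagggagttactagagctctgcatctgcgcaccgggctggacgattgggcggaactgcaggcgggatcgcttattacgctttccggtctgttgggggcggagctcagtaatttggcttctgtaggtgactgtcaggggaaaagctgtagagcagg
Gstm6: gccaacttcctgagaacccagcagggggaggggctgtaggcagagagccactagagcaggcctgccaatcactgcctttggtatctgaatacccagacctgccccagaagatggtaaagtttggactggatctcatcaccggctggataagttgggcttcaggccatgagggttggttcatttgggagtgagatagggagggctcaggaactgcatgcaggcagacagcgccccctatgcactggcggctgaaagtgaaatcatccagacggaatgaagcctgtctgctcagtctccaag
Gstm7: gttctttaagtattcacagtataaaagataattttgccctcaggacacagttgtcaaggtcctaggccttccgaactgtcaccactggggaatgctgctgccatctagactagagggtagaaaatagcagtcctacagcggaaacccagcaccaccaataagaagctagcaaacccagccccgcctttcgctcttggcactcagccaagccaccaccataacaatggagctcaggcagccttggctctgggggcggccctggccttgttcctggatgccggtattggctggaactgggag
Sult1c2: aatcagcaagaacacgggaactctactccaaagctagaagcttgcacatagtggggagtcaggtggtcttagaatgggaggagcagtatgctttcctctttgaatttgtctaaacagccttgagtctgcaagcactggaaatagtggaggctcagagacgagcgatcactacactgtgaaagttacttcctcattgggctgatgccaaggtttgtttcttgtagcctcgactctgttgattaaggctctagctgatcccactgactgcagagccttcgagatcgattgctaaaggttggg

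Of these 4 windows the one of Gstm4 held the motif GGGTCA, on the opposite strand, at base 89 of the window. Over both strands, GGGTCA was found in 7 of the 52 member windows, those of 6 genes, Gstm4, Gstm6 (at an inner start), Gsto2, Gstp2, Sult2a5 and Sult2a8, and in 13.7% of all 32851 windows. The core of the antioxidant response element, TGACNNNGC, was found in 2 member windows, 1 of Gsta3 and 1 at an inner start of Gstm7, and in 12.4% of all windows. The D-box TTATGTAA, bound by PAR bZIP factors, was found in 1 member window, that of Ugt2b1, and in 0.938% of all windows. The E-box CACGTG was found in 0 of 52 member windows and in 7.15% of all windows. A match is a description of these letters, and the windows leave out more distant elements.

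In the average over the day, 5 of the 32 tested members differed between SIRT6 KO and WT livers (limma, Benjamini-Hochberg adjusted p under 0.05 over 13308 genes). Ugt2b34, Gstt1 and Sult5a1 were higher and Ugt3a2 and Gstm7 were lower. That is 9.38% of members higher, where 3.39% of all tested genes were higher, and 6.25% lower, where 3.22% of all were lower. Without the 5 arrays that correlated least with their replicates, a choice made after seeing the data, the count was again 5, but Ugt2b34 was no longer among them (adjusted p = 0.0764). Over all 32 members, 20 differences were positive (62.5%, where 51.7% of all genes were) and 12 negative, with a median of 0.02 for members and 0.0035 for all genes. The median size of the difference was 0.11 for members and 0.06 for all genes. At an unadjusted p under 0.05, limma counted 11 of 32 members, where 19.3% of all genes were counted.

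Among the UGT genes, Ugt3a2, whose human counterpart uses UDP-glucose and UDP-xylose as donors, fell in SIRT6 KO livers. Its lowest, median and highest log2 levels were 10.96, 11.42 and 11.59 in SIRT6 KO livers, against 11.36, 11.71 and 11.86 in WT livers. The ranges overlapped, 8 of 18 KO arrays lay below every WT array, and 18 of 18 lay below the WT mean of their own time. The difference was -0.29 (SE 0.05, limma adjusted p = 2.3e-04), or 0.815-fold.

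Ugt2b34, a UGT2B enzyme and one of the 2 UGT members of highest mean intensity (which does not rank transcripts, since probe sets differ in sensitivity), was slightly higher in SIRT6 KO livers. It ran from 11.92 over a median of 12.20 to 12.48 in SIRT6 KO livers and from 11.81 over 12.07 to 12.29 in WT livers. The groups overlapped over most of their range, with 2 of 18 KO arrays above every WT array and 16 of 18 above the WT mean of their own time. The difference was 0.12 (SE 0.03, limma adjusted p = 0.0156), or 1.09-fold. With array medians centred the call ended (adjusted p = 0.115).

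The other 8 tested UGT genes did not pass the test in the SIRT6 cohort. Ugt2b1, the other UGT member of highest mean intensity, averaged 12.82 ± 0.12 in SIRT6 KO livers and 12.79 ± 0.10 in WT livers (SD, n = 18 each) (limma adjusted p = 0.745). Ugt3a1, whose human counterpart uses UDP-N-acetylglucosamine, differed by 0.25 without passing (limma adjusted p = 0.203). Ugt2b5 differed by -0.17 (limma adjusted p = 0.117). Ugt8a, which makes galactosylceramide, differed by 0.04 (limma adjusted p = 0.849).

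Among the GST genes, Gstm7 of the mu class was lower in SIRT6 KO livers and had the smallest p of all members. It ran from 9.29 over a median of 9.83 to 10.08 in SIRT6 KO livers and from 9.67 over 10.13 to 10.32 in WT livers. All 18 KO arrays lay below the WT mean of their own time, and 4 lay below every WT array. The difference was -0.30 (SE 0.04, limma adjusted p = 9.1e-06), or 0.813-fold. Gstm7 was also the member called at a single time, ZT12, where its 3 arrays read 9.44, 9.54 and 9.29 in SIRT6 KO livers against 9.67, 10.01 and 9.99 in WT livers. These did not overlap, and the difference was -0.47 (SE 0.10, limma adjusted p = 0.0394 over all genes and times). Leaving out 1 array ended this single-time call for 16 of 36 arrays (adjusted p up to 0.183), as did centred medians (0.275), no filter (0.0612) and leaving out the 5 least correlated arrays (0.104). In all, 1 of 32 members (3.12%) and 0.473% of all genes were called at 1 or more single times in the SIRT6 cohort.

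Gstt1, a theta-class enzyme that acts on small halogenated compounds, was higher in SIRT6 KO livers. It ran from 10.58 over a median of 11.22 to 11.39 in SIRT6 KO livers and from 10.54 over 10.84 to 11.26 in WT livers. The ranges overlapped, with 6 of 18 KO arrays above every WT array and 16 of 18 above the WT mean of their own time. The difference was 0.25 (SE 0.07, limma adjusted p = 0.0241), or 1.19-fold, and the call ended with array medians centred (adjusted p = 0.127).

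The 2 GST members of highest mean intensity did not pass in the SIRT6 cohort. Gstp1, of the pi class, averaged 12.35 ± 0.30 in SIRT6 KO livers and 12.35 ± 0.35 in WT livers (SD, n = 18 each). Gstk1, the kappa-class enzyme of mitochondria and peroxisomes, was 12.00 ± 0.18 in SIRT6 KO livers and 12.15 ± 0.17 in WT livers (SD, n = 18 each). Its difference of -0.15 did not pass (limma adjusted p = 0.0977). Of the other tested mu-class genes, Gstm6 differed by 0.21 (limma adjusted p = 0.173) and Gstm1, Gstm2, Gstm3 and Gstm4 had adjusted p-values from 0.351 to 0.987.

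Among the SULT genes, Sult5a1, a cytosolic sulfotransferase whose substrates are little studied, was higher in SIRT6 KO livers. It ran from 8.39 over a median of 8.97 to 9.32 in SIRT6 KO livers and from 8.01 over 8.43 to 9.06 in WT livers. The ranges overlapped, while 8 of 18 KO arrays lay above every WT array and 18 of 18 above the WT mean of their own time. The difference was 0.53 (SE 0.09, limma adjusted p = 3.9e-04), or 1.44-fold. Sult1a1, the main phenol sulfotransferase, was 11.56 ± 0.19 in SIRT6 KO livers and 11.48 ± 0.17 in WT livers (SD, n = 18 each). Sult2a8, which sulfates bile acids in mouse liver, was 11.29 ± 0.43 in SIRT6 KO livers and 11.20 ± 0.56 in WT livers (SD, n = 18 each). Neither of these 2 SULT members of highest mean intensity passed the test (limma adjusted p = 0.569 and 0.876).

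**Figure D1:**
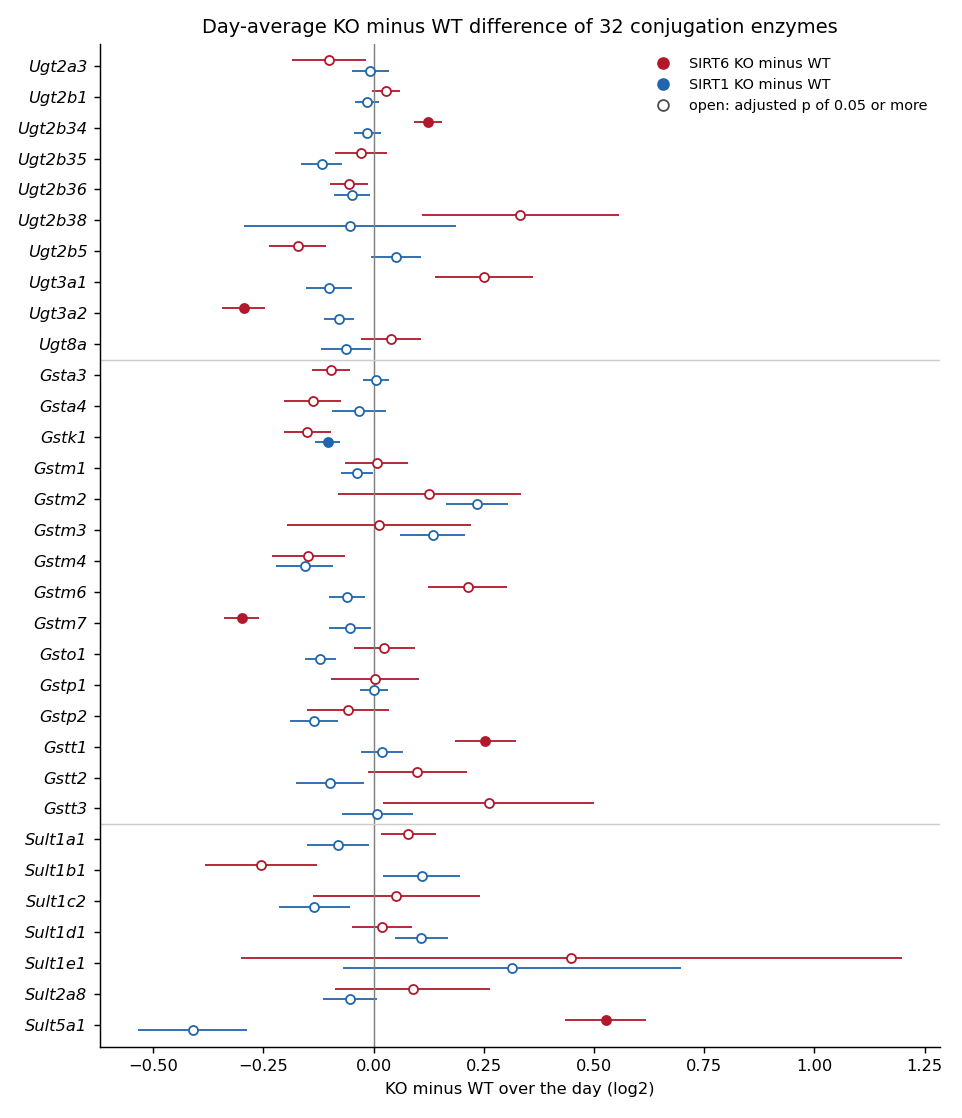
KO minus WT of the 32 tested members, averaged over the 6 times, on the log2(intensity + 16) scale; points are estimates, bars are 1 SE, red is the SIRT6 cohort and blue the SIRT1 cohort, and filled points passed an adjusted p of 0.05. The 5 filled SIRT6 points are Ugt2b34, Ugt3a2, Gstm7, Gstt1 and Sult5a1, the filled SIRT1 point is Gstk1, and Sult1e1 has the widest bar.

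In the SIRT1 cohort 1 member passed the day-average test. Gstk1 was lower, with log2 levels from 11.84 over a median of 11.96 to 12.09 in SIRT1 KO livers and from 11.91 over 12.06 to 12.24 in WT livers. The groups overlapped over most of their range, and 15 of 18 KO arrays lay below the WT mean of their own time. The difference was -0.10 (SE 0.03, limma adjusted p = 0.0488), or 0.930-fold. The call ended when any 1 of 23 of the 36 arrays was left out, with adjusted p up to 0.0924. It also ended with array medians centred (0.0739), with no filter (0.0688), with the replicate block (0.0552) and with 1 fit over all arrays (0.218). The test counted 8 of 32 members at an unadjusted p under 0.05, where 18% of all genes were counted. Members lower made up 3.12% where 1.21% of all genes were lower, and members higher made up 0% where 1.06% of all were higher. At single times 0 members and 0% of all genes were called by limma in the SIRT1 cohort, although 16 of 32 members had an unadjusted p under 0.05 at 1 or more of the 6 times, where 38.6% of all genes had.

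The members' differences in the SIRT1 cohort were 10 positive and 22 negative, with a median of -0.05 for members and -0.0017 for all genes, of which 49.1% were positive. By family, 1 of 10 UGT, 6 of 15 GST and 3 of 7 SULT differences were positive. Several GST and SULT genes missed the threshold narrowly. Gsto1, a thioltransferase of the omega class, differed by -0.12 (limma adjusted p = 0.0591), below the WT mean in 16 of 18 KO arrays. Gstm2 differed by 0.23 (limma adjusted p = 0.0714), and Sult5a1 by -0.41 (limma adjusted p = 0.0715). Sult5a1 ran from 6.31 over a median of 7.39 to 8.09 in SIRT1 KO livers and from 7.13 over 7.79 to 8.91 in WT livers, and 14 of 18 KO arrays lay below the WT mean of their own time.

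Whether the effect of one knockout differed from that of the other was tested over all 72 arrays, each KO set against its own WT. The effects differed for 4 of 32 members (12.5%), where 5.76% of all genes differed. The difference (SIRT6 effect minus SIRT1 effect) was 0.94 for Sult5a1 (SE 0.16, limma adjusted p = 7.7e-05), which differed by 0.53 in the SIRT6 cohort and by -0.41 in the SIRT1 cohort. It was -0.24 for Gstm7 (SE 0.06, limma adjusted p = 0.0114), whose SIRT1 effect was -0.05. It was -0.22 for Ugt3a2 (SE 0.06, limma adjusted p = 0.0208), whose SIRT1 effect was -0.08, and 0.14 for Ugt2b34 (SE 0.04, limma adjusted p = 0.048), whose SIRT1 effect was -0.01. The Ugt2b34 call ended when any 1 of 48 of the 72 arrays was left out, with adjusted p up to 0.0761. With array medians centred the differences of Gstm7 (adjusted p = 0.0541), Ugt3a2 (0.124) and Ugt2b34 (0.137) did not pass, and without the 5 least correlated arrays those of Ugt3a2 (0.051) and Ugt2b34 (0.0869) did not. For Gstt1 the difference of 0.24 did not pass (limma adjusted p = 0.0961). Strain and cohort cannot be told apart from the gene knocked out in this test.

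A 24 h rhythm was tested within each set of 18 arrays with a cosine fit, amplitude being the fitted peak minus trough in log2 level. In the SIRT6 cohort 3 members were rhythmic in KO livers (9.38%, where 10.6% of all genes were) and 2 in WT livers (6.25%, where 10.1% of all were). In the SIRT1 cohort 9 members were rhythmic in KO livers (28.1%, where 23.2% of all genes were) and 5 in WT livers (15.6%, where 18.3% of all were). The members' shares lay near those of all genes. Altogether 13 of 32 members were rhythmic in 1 or more sets (40.6%, where 35.3% of all were), namely 3 of 10 UGT, 6 of 15 GST and 4 of 7 SULT genes. No member was rhythmic in all 4 sets, where 3.19% of all genes were. At an unadjusted p under 0.05, with KO before WT, 8 and 9 members were counted in the SIRT6 cohort, where 24.8% and 27.1% of all genes were, and 12 and 11 in the SIRT1 cohort, where 35.9% and 32.4% were.

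Sult1c2, a sulfotransferase of the phenol family, had the largest amplitude among the rhythmic members. Its means at the 6 times, in order from ZT0 to ZT20, were 6.60, 7.47, 8.03, 7.39, 6.97 and 6.78 in SIRT1 KO livers, and 6.70, 7.62, 7.93, 7.51, 7.23 and 7.06 in WT livers (n = 3 arrays each). At ZT8 the 3 arrays read 8.03, 7.78 and 8.29 in SIRT1 KO livers and 7.94, 7.86 and 8.00 in WT livers, and at ZT0 they read 6.16, 6.81 and 6.83 in SIRT1 KO livers and 6.64, 6.60 and 6.87 in WT livers. Both genotypes were high in the middle of the light phase, and the arrays of ZT8 did not overlap with those of ZT0 in either. The amplitude was 1.28 (SE 0.19, peak at ZT 8.5, limma adjusted p = 2.3e-04) in SIRT1 KO livers and 1.01 (SE 0.17, peak at ZT 8.9, adjusted p = 8.4e-04) in WT livers. Sult1c2 was not called in the SIRT6 cohort (amplitude 0.52 in KO livers, adjusted p = 0.56, and 0.98 in WT livers, adjusted p = 0.262), and its arrays there were far more scattered, as described further on.

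Gstt2, of the theta class, peaked at nearly the same hour. Its means at the 6 times were 9.08, 9.72, 10.43, 9.48, 9.56 and 9.33 in SIRT1 KO livers, and 9.21, 9.97, 10.09, 9.89, 9.53 and 9.49 in WT livers (n = 3 arrays each). The highest mean was at ZT8 and the lowest at ZT0 in both genotypes. The amplitude was 0.93 (SE 0.19, peak at ZT 8.6, limma adjusted p = 0.00436) in SIRT1 KO livers and 0.78 (SE 0.18, peak at ZT 8.7, adjusted p = 0.0135) in WT livers. Gstm4 was rhythmic in both SIRT1 sets with amplitudes of 0.44 in SIRT1 KO livers (peak at ZT 5.0, limma adjusted p = 0.0196) and 0.50 in WT livers (peak at ZT 4.7, adjusted p = 0.021). Leaving out 1 array ended the Gstm4 call for 2 of 18 SIRT1 KO arrays (adjusted p up to 0.0578) and for 1 of 18 WT arrays (0.0506). The F test over the 6 times ended it in both (0.172 in KO and 0.133 in WT livers).

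Ugt2b35 was the UGT gene rhythmic in both genotypes of the SIRT1 cohort. Its means at the 6 times were 11.16, 11.26, 11.40, 10.94, 10.90 and 10.98 in SIRT1 KO livers, and 11.27, 11.30, 11.46, 11.29, 11.02 and 10.99 in WT livers (n = 3 arrays each). The highest mean fell at ZT8 in both genotypes. The amplitude was 0.47 (SE 0.08, limma adjusted p = 6.7e-04) in SIRT1 KO livers and 0.44 (SE 0.11, adjusted p = 0.0158; 0.102 in the F test over the 6 times) in WT livers. Its SIRT6-cohort amplitude was 0.07 in KO livers (limma adjusted p = 0.92) and 0.13 in WT livers (adjusted p = 0.623). Ugt3a1 was called in SIRT1 KO livers, with means of 10.81, 10.75, 10.69, 10.28, 10.35 and 10.64 at the 6 times, against 10.90, 10.79, 10.60, 10.59, 10.58 and 10.66 in WT livers (n = 3 arrays each). Its amplitude was 0.53 (peak at ZT 1.9, limma adjusted p = 0.00239) in SIRT1 KO livers and 0.31 (adjusted p = 0.057) in WT livers.

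The remaining SULT rhythms were each called in 1 set of the SIRT1 cohort. Sult1b1, which sulfates thyroid hormones, had means of 9.12, 9.37, 9.59, 9.05, 9.07 and 8.57 at the 6 times in SIRT1 KO livers and of 8.73, 9.17, 9.04, 9.42, 8.88 and 8.89 in WT livers (n = 3 arrays each). Its amplitude was 0.79 in SIRT1 KO livers (peak at ZT 7.0, limma adjusted p = 0.0103) and 0.48 in WT livers (adjusted p = 0.126). Sult1a1 had an amplitude of 0.51 in SIRT1 KO livers (peak at ZT 14.2, limma adjusted p = 0.00776) and 0.39 in WT livers (adjusted p = 0.138). Sult1d1, which sulfates catecholamines, had an amplitude of 0.24 in SIRT1 KO livers (limma adjusted p = 0.461) and 0.62 in WT livers (peak at ZT 14.9, adjusted p = 0.00205). These members therefore peaked in 2 parts of the day, Sult1c2 and Sult1b1 in the light phase and Sult1a1 and Sult1d1 early in the dark phase. Gsta4, which conjugates the lipid peroxidation product 4-hydroxynonenal, had an amplitude of 0.57 in SIRT1 KO livers (peak at ZT 14.0, limma adjusted p = 0.00137) and 0.31 in WT livers (adjusted p = 0.259).

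Gstm7 of the SIRT6 cohort was rhythmic in both genotypes around its lower mean in KO livers. Its means at the 6 times were 9.89, 10.03, 9.70, 9.43, 9.77 and 9.92 in SIRT6 KO livers, and 10.27, 10.30, 10.06, 9.89, 9.91 and 10.11 in WT livers (n = 3 arrays each). Both genotypes were highest at ZT4 and lowest at ZT12, and the KO mean lay below the WT mean at all 6 times. The amplitude was 0.47 (SE 0.09, peak at ZT 0.2, limma adjusted p = 0.00451) in SIRT6 KO livers and 0.45 (SE 0.09, peak at ZT 1.7, adjusted p = 0.0102) in WT livers. The WT rhythm did not pass without the 5 least correlated arrays (adjusted p = 0.0847), with array medians centred (0.076) or in the F test over the 6 times (0.143). Gstm6 had means of 9.49, 9.33, 9.28, 9.09, 9.40 and 9.49 in SIRT6 KO livers and of 9.40, 9.44, 9.02, 8.79, 8.83 and 9.33 in WT livers (n = 3 arrays each). In the SIRT6 cohort it was not called in KO livers (amplitude 0.35, limma adjusted p = 0.196) and was called in WT livers (0.73, peak at ZT 0.94, adjusted p = 0.0457). That WT call ended when any 1 of 16 of the 18 arrays was left out, with adjusted p up to 0.0807, and under 5 of the other alternatives (adjusted p up to 0.28). In the SIRT1 cohort Gstm6 was called in KO livers (amplitude 0.30, peak at ZT 2.5, limma adjusted p = 0.00777; 0.057 with array medians centred) and not in WT livers (0.26, adjusted p = 0.148). Gsta3, which conjugates the aflatoxin epoxide in mice, and Ugt2b34 were called in KO livers, with amplitudes of 0.45 (peak at ZT 16.4, limma adjusted p = 0.0106) and 0.28 (peak at ZT 17.0, adjusted p = 0.0143). Both calls ended with array medians centred (adjusted p = 0.0891 and 0.119) and in the F test over the 6 times (0.171 and 0.122). In WT livers they had amplitudes of 0.22 (adjusted p = 0.0933) and 0.26 (adjusted p = 0.0591).

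A member called in 1 genotype and not in the other was not shown to differ in rhythm. The test of genotype by cosine called 0 of 32 members in the SIRT6 cohort, where 0.00751% of all genes were called, and 0 of 32 in the SIRT1 cohort, where 0% were called (limma, adjusted over 13308 genes). At an unadjusted p under 0.05 it counted 1 member in the SIRT6 cohort, where 8.25% of all genes were counted, and 0 members in the SIRT1 cohort, where 7.26% were.

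**Figure D2:**
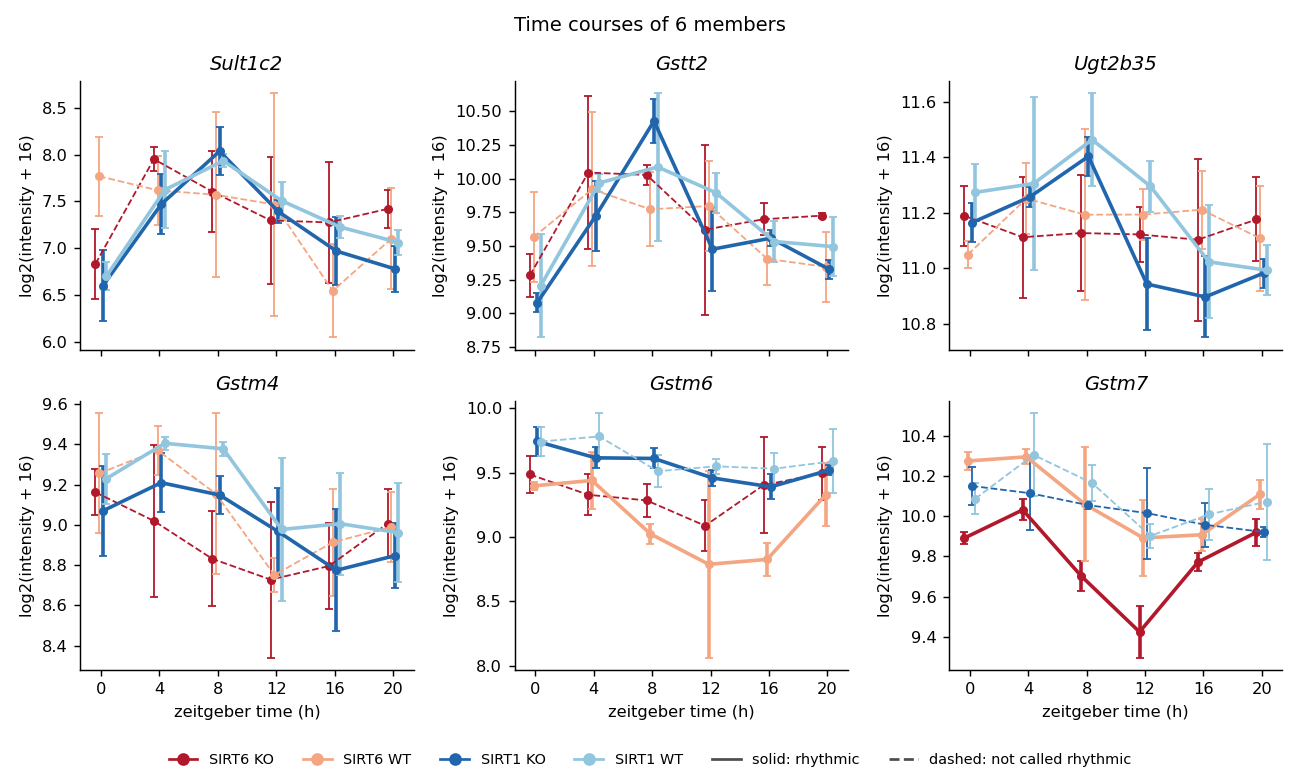
Mean log2 level of 6 members against zeitgeber time in hours, for SIRT6 KO, SIRT6 WT, SIRT1 KO and SIRT1 WT livers; bars are SD (n = 3 arrays per time), solid lines passed the rhythm test and dashed lines did not. Sult1c2, Gstt2 and Ugt2b35 were highest at ZT8 in both genotypes of the SIRT1 cohort, and Gstm7 in SIRT6 KO livers lies below its WT at every time.

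Some members varied widely between replicate arrays, above all in the SIRT6 cohort. The SD within groups was wider in the SIRT6 cohort than in the SIRT1 cohort for 27 of 32 members (84.4%), where it was wider for 62.2% of all genes. It exceeded 0.5 in the SIRT6 cohort for 7 of the 32 tested members, a list chosen after their values were seen, and for Sult2a2 (1.06), Ugt2b37 (0.57) and Sult3a1 (0.55) among the 16 below the filter. For Sult1e1, the oestrogen sulfotransferase, it was 2.38 (SIRT6 cohort) and 1.28 (SIRT1 cohort). With the SIRT6 cohort first, it was 0.76 and 0.26 for Gstt3, 0.66 and 0.24 for Gstm3, 0.66 and 0.23 for Gstm2, 0.60 and 0.26 for Sult1c2, and 0.56 and 0.20 for Sult2a8. Ugt2b38 had an SD of 0.71 among SIRT6 arrays and 0.80 among SIRT1 arrays. It averaged 5.31 in SIRT6 KO and 4.98 in SIRT6 WT livers, under the cut of 6.005. It passed the filter through its SIRT1 levels (7.25 in KO and 7.30 in WT livers). In the SIRT6 cohort, KO replicate 2 read 6.91 at ZT12, 7.11 at ZT16 and 7.47 at ZT20. No other SIRT6 array read above 5.80, so the scatter there rests on these KO arrays.

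Sult1e1 ran from 5.48 over a median of 6.37 to 11.08 in SIRT6 KO livers and from 4.31 over 5.80 to 11.94 in WT livers, so both genotypes held arrays near background and arrays at a high level. At ZT12, WT replicate 1 read 11.94 while its replicates read 5.74 and 4.74. The same array read 11.86 for Gstm3, where its replicates read 9.82 and 10.18, and 7.54 for Gstt3, where they read 9.54 and 9.58. In SIRT6 KO livers at ZT12, replicate 1 was also the highest for Sult1e1 (9.98, against 5.71 and 5.70). At ZT8, replicate 2 was the lowest in WT livers (5.33) and the highest in KO livers (10.72). Across the SIRT1 arrays Sult1e1 ran from 4.86 over 5.94 to 12.79 in KO livers and from 5.20 over 5.81 to 8.45 in WT livers. The SIRT1 KO maximum was ZT12 replicate 2, whose replicates read 5.95 and 6.60, and the next highest KO array read 6.94. KO minus WT was 0.45 for SIRT6 (SE 0.75, limma adjusted p = 0.847) and 0.31 for SIRT1 (SE 0.38, adjusted p = 0.696).

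After group means were removed, the scattered members other than Ugt2b38 mostly moved together or against each other across the 36 SIRT6 arrays. The permutation took these arrays as separate, while same-numbered KO and WT arrays of this cohort correlated at up to 0.744. A source shared by such arrays was not tested, and with one the permutation p-values could be too small. Sult1e1 and Gstm3 had a Pearson r of 0.90 and a Spearman rho of 0.90 (n = 36, permutation within groups, adjusted p = 2.8e-04 for r and 2.4e-04 for rho), with r of 0.88 without the 2 farthest arrays, 0.85 within KO livers and 0.95 within WT livers. Sult1e1 and Gstm2 had r of 0.86 and rho of 0.84 (permutation, adjusted p = 7.0e-04 and 7.1e-04), and r of 0.82 without the 2 farthest arrays. Sult1e1 and Gstt3 ran against each other, with r of -0.84 and rho of -0.85 (permutation, adjusted p = 5.9e-04 and 4.9e-04), and r of -0.80 without the 2 farthest arrays. Sult1e1 was likewise negatively related to Sult1c2 (r -0.77, rho -0.72, r -0.71 without the 2 farthest arrays, permutation adjusted p = 0.002 and 0.0024). The relation to Sult2a8 was similar (r -0.75, rho -0.74, r -0.67 without the 2 farthest arrays, permutation adjusted p = 0.0011 and 9.8e-04). The relation of Sult1e1 to Ugt2b38 did not pass (r -0.14, rho -0.11, permutation adjusted p = 0.62 and 0.74). Sult1e1 and Gstm3 had, in the SIRT1 cohort, r of 0.47 and rho of 0.57 (n = 36, permutation adjusted p = 0.087 and 0.0073). Of 84 relations computed, 42 per cohort, 13 of 21 member pairs passed for r among SIRT6 arrays and 2 of 21 among SIRT1 arrays. The members were chosen for their scatter in the SIRT6 cohort, so these counts do not compare the cohorts on equal terms. The share over all pairs of genes was not computed.

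Markers of Kupffer cells and lymphocytes moved with the same arrays in the SIRT6 cohort. Stellate, endothelial and bile duct cell markers were not set against the members. The mean level of 9 Kupffer cell markers ran from 7.89 to 10.49 in SIRT6 KO livers and from 7.55 to 10.17 in WT livers, against 7.20 to 8.78 in SIRT1 KO livers and 7.69 to 9.04 in their WT. The mean of 6 lymphocyte markers ran from 5.99 to 8.81 in SIRT6 KO livers and from 5.86 to 9.03 in WT livers, against 6.36 to 6.94 in SIRT1 KO livers and 6.30 to 6.79 in their WT. The mean of 8 hepatocyte markers, all measured, ran from 12.21 to 12.54 in SIRT6 KO livers and from 12.32 to 12.57 in WT livers. In the SIRT6 cohort Sult1e1 was related to the lymphocyte mean (r 0.81, rho 0.80, r 0.75 without the 2 farthest arrays, n = 36, permutation adjusted p = 4.8e-04 and 2.4e-04). It was related to the Kupffer cell mean (r 0.72, rho 0.74, r 0.65 without the 2 farthest arrays, permutation adjusted p = 8.4e-04 and 2.4e-04) and negatively to the hepatocyte mean (r -0.63, rho -0.63, r -0.54 without the 2 farthest arrays, permutation adjusted p = 0.0077 and 0.0069). In the SIRT1 cohort these relations of Sult1e1 did not pass. There r was 0.18 for the lymphocyte, 0.11 for the Kupffer cell and -0.02 for the hepatocyte mean (permutation adjusted p = 0.83, 0.93 and 0.94). Of 21 relations between a scattered member and a marker mean, 17 passed for r among SIRT6 arrays and 0 among SIRT1 arrays. Here too the members had been chosen for their scatter among SIRT6 arrays, and the share over all genes was not computed. Between genotypes, 9 of 9 Kupffer cell markers had a positive difference in the SIRT6 cohort (median 0.17) and 0 of 9 in the SIRT1 cohort (median -0.14), and 0 were called by limma in either (0 and 1 at an unadjusted p under 0.05). No measured Kupffer cell or lymphocyte marker was at 0 on any array, the lowest value being 4.92 for Cd79a, a lymphocyte marker below the filter, where an intensity of 0 would read 4. The part of other cells in the members' values was not tested, and in bulk liver fewer cells of a type and less RNA per cell cannot be told apart.

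**Figure D3:**
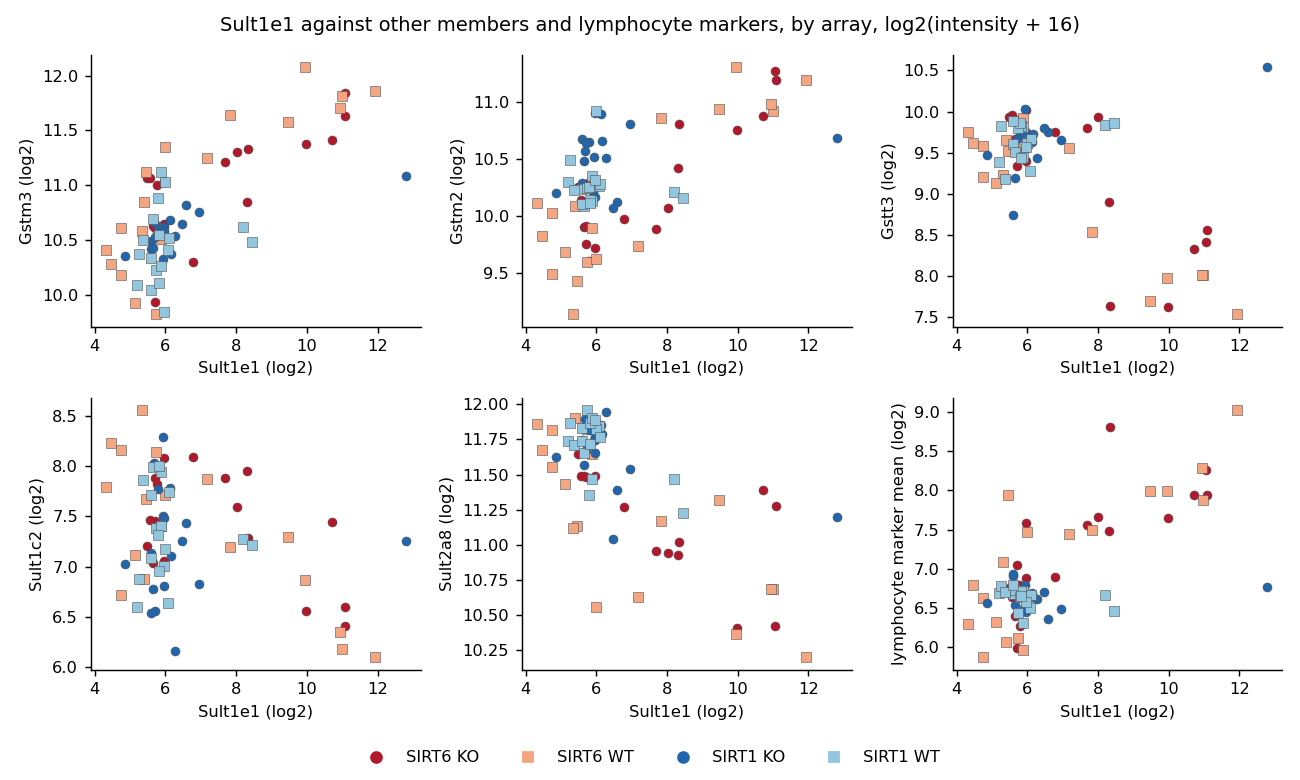
Log2 levels of 5 members and the mean of 6 lymphocyte markers against the log2 level of Sult1e1, 1 point per array (72 arrays), circles for KO and squares for WT, reds for the SIRT6 cohort and blues for the SIRT1 cohort. SIRT6-cohort arrays with high Sult1e1 are high in Gstm3, Gstm2 and lymphocyte markers and low in Gstt3 and Sult2a8, in both genotypes, while the SIRT1 KO array at 12.79 has the highest Gstt3 (10.54).

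The 16 members below the filter on low values were Ugt2b37, Gsto2, Gstt4 and 13 SULT genes (Sult1c1, Sult2a1 to Sult2a6, Sult2b1, Sult3a1, Sult3a2, Sult4a1, Sult6b1 and Sult6b2). With no filter, all 48 members were tested among 22180 genes. In the SIRT6 cohort 5 members were higher, where 1.96% of all genes were, and 2 were lower, where 1.56% were. In the SIRT1 cohort 0 members were called in either direction by limma, where 0.388% of all genes were higher and 0.555% lower. At an unadjusted p under 0.05, 9 of the 48 members were counted there. The share of all 22180 genes at that p was not computed, and with the filter it was 18% of 13308 genes. The SIRT6 calls of the filtered test all remained, and the 2 added were Sult2a1 and Sult2a2, hydroxysteroid and bile acid sulfotransferases that are known to be higher in female than in male mouse liver.

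Sult2a2 had the largest difference of any member. It ran from 5.29 over a median of 7.42 to 8.67 in SIRT6 KO livers and from 4.46 over 5.18 to 8.75 in WT livers. Most KO arrays stood above most WT arrays, but KO ZT20 replicate 1 (5.29) and KO ZT12 replicate 1 (5.37) were at the level of WT, and WT ZT16 replicate 2 (8.75) and WT ZT8 replicate 3 (7.20) were at the level of KO. The difference was 1.97 (SE 0.33, limma adjusted p = 3.9e-04 with no filter), or 3.91-fold, and 17 of 18 KO arrays lay above the WT mean of their own time. Sult2a2 averaged, in the SIRT1 cohort, 5.10 in both KO and WT livers (limma adjusted p = 0.973). Sult2a1 ran from 4.44 over 4.93 to 6.17 in SIRT6 KO livers and from 4.00 over 4.45 to 5.0 in WT livers, with a difference of 0.64 (SE 0.14, limma adjusted p = 0.00533 with no filter). Sult2a5 differed by 0.21 without passing (limma adjusted p = 0.0521 with no filter), and 18 of 18 KO arrays lay above the WT mean of their own time. Ugt2b37 differed by -0.55 (limma adjusted p = 0.097 with no filter). Sult2a1, Sult2a5 and most WT arrays of Sult2a2 lie near the floor of the scale, where log2(intensity + 16) understates fold changes.

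Some genes of sex-biased liver expression also changed, in both directions. Of 8 female-biased genes tested, 3 were higher in SIRT6 KO livers, namely Cyp2a4 by 0.88 (limma adjusted p = 0.00267), Atp6v0d2 by 0.92 (adjusted p = 7.0e-04) and Slc22a26 by 1.22 (adjusted p = 0.0388), and Cyp17a1 was lower, with a difference of -0.70 (adjusted p = 0.0327). Of 11 male-biased genes tested, 3 were also higher (Cyp2d9, Mup20 and Mup21) and C6 was lower. Of the same 8 female-biased genes 0 were called by limma in the SIRT1 cohort (2 at an unadjusted p under 0.05). Of the 11 male-biased genes, Mup21 was higher in SIRT1 KO livers by 0.60 (limma adjusted p = 0.0168) and Cyp4a12b was lower, with a difference of -0.45 (adjusted p = 0.00787). Over all 72 arrays Xist lay between 5.54 and 6.44 and the Y-linked Kdm5d between 7.32 and 8.58, without a separate group of arrays in either. The part of the regulators of sex-biased genes in the Sult2a values was not tested.

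**Figure D4:**
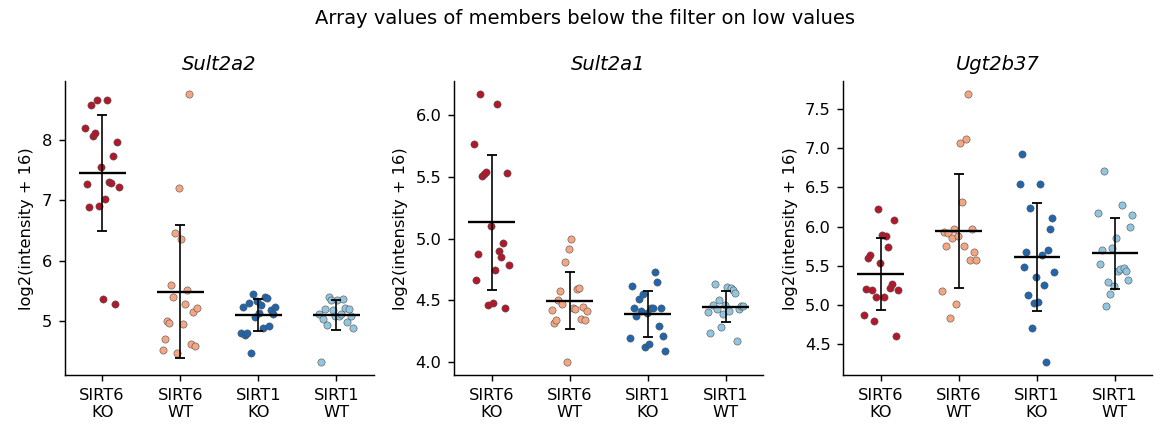
Log2 level of 3 members below the filter on low values, 1 point per array, in SIRT6 KO, SIRT6 WT, SIRT1 KO and SIRT1 WT livers from left to right; lines are means and bars are SD (n = 18 each). Sult2a2 and Sult2a1 are higher in SIRT6 KO than in SIRT6 WT livers and near the floor in the SIRT1 cohort, and Ugt2b37 (difference -0.55) did not pass the test.

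Most of the supply and export genes around the conjugating enzymes did not pass the adjusted test in either cohort. At an unadjusted p under 0.05, limma counted 19.3% of all genes for SIRT6 and 18% for SIRT1. Of 5 genes for UDP-glucuronic acid, 0 were called by limma in the SIRT6 cohort (1 at an unadjusted p under 0.05), and in the SIRT1 cohort Gusb, which splits glucuronides again, was higher (8.87 ± 0.18 in KO and 8.64 ± 0.19 in WT livers, SD, n = 18 each, limma adjusted p = 0.0155). Of 7 genes for PAPS, Slc26a1, a sulfate transporter, was lower in SIRT6 KO livers (10.55 ± 0.18 against 10.73 ± 0.15 in WT livers, SD, n = 18 each, limma adjusted p = 0.0116). At an unadjusted p under 0.05, limma counted 4 of the 7 PAPS genes for SIRT6 and 2 for SIRT1. It counted 2 of the 5 genes for UDP-glucuronic acid for SIRT1. Of 13 glutathione supply genes 0 were called by limma in either cohort (1 at an unadjusted p under 0.05 in each). Of 3 microsomal GST genes 0 were called as well (1 at an unadjusted p under 0.05 in the SIRT6 cohort, 0 in the SIRT1 cohort). Of 11 other conjugating enzymes, Baat, which joins bile acids to taurine and glycine, was lower in SIRT6 KO livers (9.40 ± 0.43 against 10.17 ± 0.13 in WT livers, SD, n = 18 each, limma adjusted p = 1.5e-05). Hnmt, which methylates histamine, was lower there too, with a difference of -0.27 (limma adjusted p = 0.00563). By limma, 3 of these 11 enzymes had an unadjusted p under 0.05 for SIRT6 and 2 for SIRT1. Nat8, which acetylates cysteine conjugates, was higher in SIRT6 KO livers by 0.61 (limma adjusted p = 0.00403) and lower in SIRT1 KO livers, with a difference of -0.48 (adjusted p = 0.00727).

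Among genes that regulate or share regulators with the members, 0 of 11 xenobiotic regulators were called by limma in either cohort (1 at an unadjusted p under 0.05 in the SIRT6 cohort, 2 in the SIRT1 cohort). In the SIRT6 cohort 0 of 9 NRF2 targets, 0 of 11 CAR, PXR and AHR targets, 0 of 6 efflux pumps and 0 of 4 PAR bZIP factors were called by limma. The counts at an unadjusted p under 0.05 were 3 NRF2 targets, 2 CAR, PXR and AHR targets, 1 efflux pump and 0 PAR bZIP factors. In the SIRT1 cohort Cyp2b10, the standard CAR target, was lower (6.32 ± 0.65 in KO and 7.76 ± 1.03 in WT livers, SD, n = 18 each, limma adjusted p = 0.00601). Cyp3a11, the standard PXR target, was lower as well, with a difference of -0.18 (limma adjusted p = 0.0173), as was the efflux pump gene Abcc4, with -0.31 (adjusted p = 0.0273). Taldo1 was higher by 0.15 (limma adjusted p = 0.0366) and Hlf by 0.21 (adjusted p = 0.0285). At an unadjusted p under 0.05, limma counted 4 of 6 efflux pumps for SIRT1, where 18% of all genes were counted. Of these 6 pumps 1 had a positive difference, and their median was -0.19. The other SIRT1 counts were 4 of 11 CAR, PXR and AHR targets, 1 of 9 NRF2 targets and 1 of 4 PAR bZIP factors. Rhythm in all 4 sets was called for 0 of 32 members and for 3.19% of all genes. Among the listed genes it was found for Gclc, the rate-limiting enzyme of glutathione synthesis, for Alas1 and for the male-biased Elovl3. It was also found for Dbp, Tef and Nfil3 among the PAR bZIP factors and their antagonist, and for the efflux pumps Abcc2, Abcb11 and Abcb1a. Dbp had amplitudes of 4.10 in SIRT6 KO and 4.12 in SIRT6 WT livers, and of 4.34 in SIRT1 KO and 4.72 in SIRT1 WT livers. Gclc had amplitudes of 0.69 in SIRT6 KO and 0.72 in SIRT6 WT livers, and of 0.56 in SIRT1 KO and 0.51 in SIRT1 WT livers, with peaks between ZT 0.28 and ZT 1.40.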

How the data were processed

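The authors deposited 1 table of probe set intensity on a linear scale for 72 mouse liver arrays. Per the submitters' processing notes it was made with Affymetrix Expression Console 1.1.1 and PLIER 2.0, and its normalization settings and genome build were not stated in the labels used here. Of 41345 probe sets, 23521 carried 1 symbol, 1814 several and 16010 none. Probe sets naming several genes (9 of these families, among them those of the Ugt1a cluster, Gsta1 and Gstz1) gave no member, and hybridisation between close paralogues was not tested. The highest-mean probe set stood for a gene, and all 48 members matched the RefSeq gene table by Entrez identifier. Intensities were taken as log2(intensity + 16), and genes with a mean under 6.005 (the lowest 40%) were left out. For each cohort, 12 group means were fitted in limma (version 3.58.1, R 4.3.3), with an intensity trend and Benjamini-Hochberg adjustment over 13308 genes, without a replicate block. Calls at single times were adjusted over all genes and times together. Rhythm was a moderated F of a 24 h cosine over 18 arrays. A fit of 72 arrays gave the difference between the knockouts' effects. Correlations used 100000 permutations within groups. Precision is limited by the number of arrays. The steps were tested on simulated data.

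The members, the gene lists and the tests were chosen with earlier results of these data known. Values over all arrays or times are given for members past a threshold, for the 2 largest rhythms and the 2 highest mean intensities per family, and Sult1e1, the other scattered members and the members below the filter were chosen after their values were seen. The alternatives tried were quantile normalization, centred medians, pseudocounts of 1 and 64, other filters, a replicate block, array weights, 1 fit over all arrays, an F test over the 6 times and leaving out arrays.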

Additional observations from a re-analysis of the deposited data

Results flagged for a closer look

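For 4 of 32 members (12.5%, where 5.76% of all genes differed) the effects of SIRT6 KO and SIRT1 KO differed. Each KO was set against its own WT, in the test of the difference itself (limma over 72 arrays). The difference was 0.94 for Sult5a1, which was above its WT mean at that time in 18 of 18 SIRT6 KO arrays and below it in 14 of 18 SIRT1 KO arrays. It was -0.24 for Gstm7 and -0.22 for Ugt3a2, both below their WT means at that time in 18 of 18 SIRT6 KO arrays and in 13 and 12 of 18 SIRT1 KO arrays. It was 0.14 for Ugt2b34, which was above that mean in 16 of 18 SIRT6 KO arrays and below it in 9 of 18 SIRT1 KO arrays. With array medians centred, only the difference of Sult5a1 passed. The Ugt2b34 call also ended when any 1 of 48 of the 72 arrays was left out. The strain labels differ with the cohort, and their part was not tested.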

How the results depend on the processing

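No member result called in the main tests changed direction under any alternative run. Results that were not called were not followed for direction. The day-average SIRT6 calls of Gstm7, Sult5a1 and Ugt3a2 held under all 10 alternatives and without each of 36 arrays in turn. For counts, centring array medians gave 3 SIRT6 day-average members (5 as reported), 0 at single times (1), 1 rhythmic member in SIRT6 KO (3), 0 in SIRT6 WT (2) and 1 difference between the effects (4). Array weights, whose estimation stopped before it converged, gave 6 SIRT1 day-average members (1), 10 SIRT6 and 1 SIRT1 members at single times (1 and 0), 6 rhythmic in SIRT6 WT and 10 differences between the effects. Quantile normalization gave 2 SIRT1 day-average members. No filter gave 0 SIRT1 day-average members, 0 SIRT6 single-time members and 1 rhythmic in SIRT6 WT, and leaving out the lowest 60% of genes gave 4 there. The F test over the 6 times gave 1 rhythmic member in SIRT6 KO, 0 in SIRT6 WT and 3 in SIRT1 WT (5). Without the 5 least correlated SIRT6 arrays, added after seeing the data, 0 SIRT6 single-time members and 0 rhythmic in SIRT6 WT were left. The cause of these changes was not tested.

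With the replicate block, 0 SIRT1 day-average members were called (Gstk1 adjusted p = 0.0552), and the Ugt2b34 difference between the effects ended (0.0561). The labels give no shared source for a number, so the numbers were not taken as pairs. Same-numbered KO and WT arrays correlated over 0.1 in 11 of 18 SIRT6 pairs (-0.362 to 0.744, median 0.254). In the SIRT1 cohort they did so in 6 of 18 pairs (-0.284 to 0.37, median 0.0274). The SIRT6 pairs ran from 0.10 to 0.74 at ZT12, ZT16 and ZT20, and from -0.36 to 0.50 at ZT0, ZT4 and ZT8. The replicate block was the same at all times, so a source shared by KO and WT arrays at single times was not tested.

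Leaving out each array in turn gave 5 to 6 SIRT6 and 0 to 3 SIRT1 day-average members, 0 to 1 SIRT6 and 0 to 0 SIRT1 single-time members, 0 to 0 differences in rhythm in both cohorts and 3 to 5 differences between the effects. Rhythmic members numbered 3 to 4 in SIRT6 KO, 1 to 3 in SIRT6 WT, 8 to 11 in SIRT1 KO and 4 to 7 in SIRT1 WT. The alternative of other probe sets gave no value, since each member has 1. Members near the floor of the scale are limited by signal over background.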

Other observations

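In SIRT6 KO ZT8 replicate 1, Sult3a1 read 7.46 and Sult3a2 5.75, while the next highest SIRT6 KO arrays read 5.04 and 4.58. The probe set shared by Gstm5 and a second gene averaged 8.42 ± 0.16 in SIRT6 KO and 8.02 ± 0.24 in SIRT6 WT livers, and 7.78 ± 0.16 in SIRT1 KO and 7.66 ± 0.19 in SIRT1 WT livers (SD, n = 18 each). The probe set shared by 8 Ugt1a genes averaged 11.12 ± 0.13 in SIRT6 KO and 11.20 ± 0.09 in SIRT6 WT livers, and 11.01 ± 0.12 in SIRT1 KO and 11.06 ± 0.13 in SIRT1 WT livers (SD, n = 18 each). Neither was tested. Ugt2b38 averaged 5.31 ± 0.91 in SIRT6 KO and 4.98 ± 0.33 in SIRT6 WT livers, and 7.25 ± 0.74 in SIRT1 KO and 7.30 ± 0.76 in SIRT1 WT livers (SD, n = 18 each).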
